A study of Drosophila melanogaster with 6 samples.

Results

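The fat body of adult female Drosophila melanogaster that carried a fat body GAL4 driver and no UAS transgene was examined across genes. These driver-only controls, labelled FB-GAL4, gave 3 of the 6 RNA sequencing libraries of the study. The members were chosen by label alone, and the 3 libraries with the Dp110DN transgene are the other group of the study. The FB-GAL4 flies were females aged 7 to 10 days in the white Dahomey background, an outbred wild-type stock that carries a white mutation and is positive for Wolbachia. The driver is constitutive, so these flies made GAL4 in the fat body but had nothing for it to switch on. Per the study's methods, flies had been allowed to mate before they were sorted by sex, and were kept at 25 °C on sugar, yeast and agar medium. Each library pooled the dissected fat bodies of several flies. The series text speaks of 5 flies for a sample and the methods of a different number, which could not be reconciled here. Per the series text each replicate was prepared on its own date, so replicate and date cannot be told apart. With 1 group there is no contrast between conditions, and what follows is a description with the spread over libraries (mean ± SD, n = 3).

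The insect fat body is a loose sheet of lipid-filled cells that does work shared in mammals between adipose tissue and liver. It stores triglyceride and glycogen, builds the lipoproteins that carry lipid through the haemolymph, makes trehalose (the main blood sugar), and secretes immune peptides and hormones. In the mature female it also makes yolk proteins, which are taken up by the growing oocytes. The abdominal fat body lies against the cuticle, the muscles and tracheae of the body wall, the gut and the ovary. Oenocytes, which make the waxy hydrocarbons of the cuticle, lie beside it.

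Libraries held 34435224, 22607341 and 28559127 counts for replicates 1, 2 and 3, and values for single libraries are given in this order throughout. Of 15682 genes in the table, 12680 had at least 1 count in some library and 3002 had none. A level of at least 1 CPM, the count scaled to a library total of 1000000, was reached in every library by 9274 genes, and at least 100 CPM by 1509. Counts of list members that reached 1 CPM are to be set against these 9274 of 15682 genes. The smallest difference between a pair of libraries, replicates 1 and 2, gave a chi-square (over genes with at least 10 counts in the pair) of 70.4 per degree of freedom, where counting error alone gives a value near 1. No library was therefore a copy of another. Replicates 1 and 2 differed by more than 2-fold at 131 of the 7529 genes with a mean of 10 CPM or more. Replicate 3 differed that far from replicate 1 at 456 genes and from replicate 2 at 451. The biological coefficient of variation fitted by edgeR was 0.273 over all libraries and 0.184 without replicate 3. Because replicate 3 stood apart, levels are given library by library, or with and without it. In bulk tissue, fewer cells of a type and less RNA per cell cannot be told apart.

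The transcriptome was led by a small number of genes. The 10 genes of highest mean CPM held 15.3 ± 1.17% of the counts, the leading 100 held 32.4 ± 2.14% and the leading 1000 held 65.4 ± 1.81%. To reach 50% of the counts, 303, 397 and 380 genes were needed in the 3 libraries. The leading 10 were 4 transcripts of the mitochondrial genome, the 3 yolk protein genes, Cyp4g1, CG16826 and FBgn0000556, an identifier without a symbol in the reference table. Without replicate 3, apolpp took the place of mt:Cyt-b among these 10, and 27 of the leading 30 were shared. The plot of the leading genes shows how unevenly the libraries were spread: yolk, lipoprotein and gut protease genes were lowest in replicate 3, and mitochondrial transcripts and the muscle myosin gene Mhc were highest there.

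**Figure D1:**
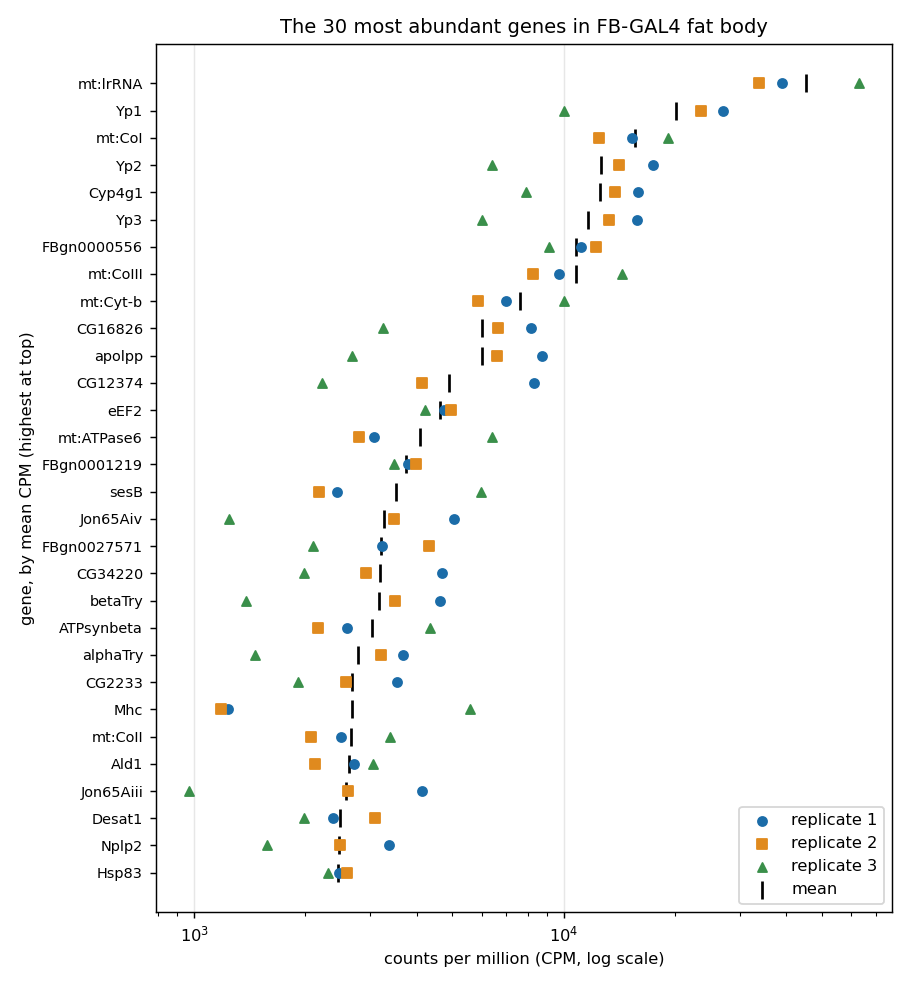
Levels of the 30 genes of highest mean CPM in FB-GAL4 fat body, one row per gene, on a log axis of CPM. Coloured symbols are the 3 libraries and the black tick is their mean; mt:lrRNA leads at 45319 CPM, and Yp1 follows at 20171 CPM with replicate 3 at 10045 CPM.

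The yolk protein genes, whose products feed the oocyte, were among the nuclear genes of most counts, and Yp1 had the most in every library. Yp1 stood at 26970.0, 23498 and 10045 CPM, Yp2 at 17425, 14118 and 6389.6 CPM and Yp3 at 15803, 13246 and 5998 CPM. Together they took 6.02%, 5.09% and 2.24% of the library counts (4.45 ± 1.97%). Replicate 3 was thus the lowest library for each of the 3 genes, at 2.63 to 2.73 times below the highest. Their proportions to each other moved far less. The ratio of Yp1 to Yp2 counts was 1.55, 1.66 and 1.57, and the ratio of Yp3 to Yp2 was 0.907, 0.938 and 0.939. Per length, as TPM (counts over exonic length, scaled to a sum of 1000000), the means were 22043, 13748 and 11006 TPM for Yp1, Yp2 and Yp3, and all 3 lie on the X chromosome. Of the sex-determination genes that control them, Sxl, the female switch gene, had 174, 180.2 and 182 CPM. The level of dsx, which encodes the sex-specific factor that acts on the yolk genes, was 73.6, 57.5 and 47.3 CPM. The female-biased fat body peptide gene fit had 179.7, 158 and 88.1 CPM, lowest in replicate 3 like the yolk genes. Male markers were scarce. A count of 0 allows up to 3 counts, which is 0.0871, 0.133 and 0.105 CPM. The male dosage compensation RNA lncRNA:roX1 stood at 0.929, 0.398 and 1.33 CPM, and 12 of 18 genes of the male germline and accessory gland, among them the sex peptide gene SP, had no count in any library.

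Lipid transport and fat synthesis genes followed. The lipophorin apolipoprotein gene apolpp, whose product is the main lipid carrier of the haemolymph, had 8721, 6620.5 and 2671 CPM. Apoltp, which encodes the particle that loads lipid onto lipophorin, had 568, 423 and 212 CPM. Both were highest in replicate 1 and lowest in replicate 3, and 2 of 10 lipoprotein genes at 10 CPM or more, apolpp and the sterol-binding gene Npc2e, were over 2-fold lower in replicate 3 than in each of the others. Over all 7529 genes at that level, 1.37% were as far below both others in replicate 3 and 2.72% as far above, or 4.09% in either direction. Npc2e, named after its values were seen, had 72.0, 135 and 16.9 CPM. The lipophorin receptor genes did not share this: LpR2 had 542, 544 and 569.7 CPM and LpR1 194, 203 and 135 CPM. Among 21 genes of fat synthesis, all of them at 1 CPM or more in every library, Desat1, a fatty acid desaturase, was highest per length at 1763 TPM, with 2369.5, 3088 and 1983 CPM. The malic enzyme gene Men, which supplies NADPH, had 1189, 1279.7 and 816 CPM. ACC, the enzyme that makes malonyl-CoA, had 884, 1051 and 721 CPM, and AcCoAS, an acetyl-CoA synthetase, 1019, 1122 and 466 CPM. In 18 of the 21 genes replicate 3 was the lowest library. How many of all genes were lowest there was not counted, so the 18 have no share to be set against. More than 2-fold below both others there was 1 of 20, AcCoAS, against 1.37% of all genes. Their transcriptional regulator SREBP varied little, with 288, 299 and 255 CPM.

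Genes that coat and empty the lipid droplet were also abundant. The perilipin gene Lsd-2 had 925, 873 and 612 CPM and the related Lsd-1 679.7, 723 and 381 CPM. Jabba, another droplet protein, had 443, 522 and 371 CPM. Per length the order was Lsd-1 at 535 TPM, Jabba at 325 TPM and Lsd-2 at 308 TPM. The lipase gene bmm, the fly counterpart of mammalian ATGL, was one of the steadier genes of the list at 137, 153 and 152 CPM. The receptor for adipokinetic hormone, AkhR, through which that hormone drives fat release, had 77.9, 82.6 and 40.8 CPM, lowest in replicate 3. Beta-oxidation was represented by Mcad at 364 ± 41.3 CPM, by the trifunctional protein subunits Mtpalpha and Mtpbeta at 323 ± 33.7 and 236 ± 24.1 CPM, and by whd, the carnitine palmitoyltransferase, at 303 ± 60.4 CPM (SD, n = 3). Over the list, 18 of 20 genes reached 1 CPM in every library. Of the 18 at a mean of 10 CPM or more, 0 were over 2-fold apart in replicate 3. With 4.09% of all genes that far apart, a count of 0 does not set these 18 apart from other genes.

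Of the genes for trehalose and glycogen, some were even over libraries and others were not. Tps1, the trehalose phosphate synthase, had 1585, 1909 and 1244 CPM and led its list per length at 956 TPM. The trehalase gene Treh had 347, 358 and 334 CPM and the trehalose transporter gene Tret1-1 407, 365 and 454 CPM. Glycogen phosphorylase, Glyp, instead had 747, 799 and 2110.2 CPM and the glycogen branching enzyme AGBE 163, 156 and 329 CPM, so both were over 2-fold higher in replicate 3. These are the 2 of 10 genes of this list that passed that limit, against 2.72% of all genes at a mean of 10 CPM or more. Muscle also expresses both, and the summed CPM of 26 muscle genes was 12199, 10856 and 32159 in the same libraries. The part of muscle RNA in these values was not tested.

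All 18 genes of glycolysis and gluconeogenesis reached 1 CPM in every library, with a median of 380 TPM. Ald1, the aldolase gene, had 2715, 2129 and 3053 CPM. Gapdh1 had 899, 759 and 2325 CPM while Gapdh2, encoding the same enzyme activity, had 989, 1035 and 1207 CPM. Gapdh1 was thus the 1 gene of 18 over 2-fold higher in replicate 3, against 2.72% of all genes. Pepck1, which commits carbon to gluconeogenesis, went the other way at 2327, 1804 and 1274 CPM. Of 23 genes of amino acid breakdown and one-carbon metabolism, Gs2, a glutamine synthetase, was highest per length at 462 TPM, with 611, 537 and 604 CPM. The S-adenosylmethionine synthetase gene Sam-S had 496, 429 and 433 CPM and Ahcy, which clears S-adenosylhomocysteine, 361, 365 and 319.5 CPM. Tyrosine breakdown was represented by Hpd at 418, 282 and 244 CPM and Tat at 257, 188 and 100.5 CPM. The widest spread of this list was in Gnmt, the glycine N-methyltransferase that uses up S-adenosylmethionine, with 208, 24.8 and 103 CPM: replicate 2 was the low library here, and Gnmt is named after its values were seen.

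**Figure D2:**
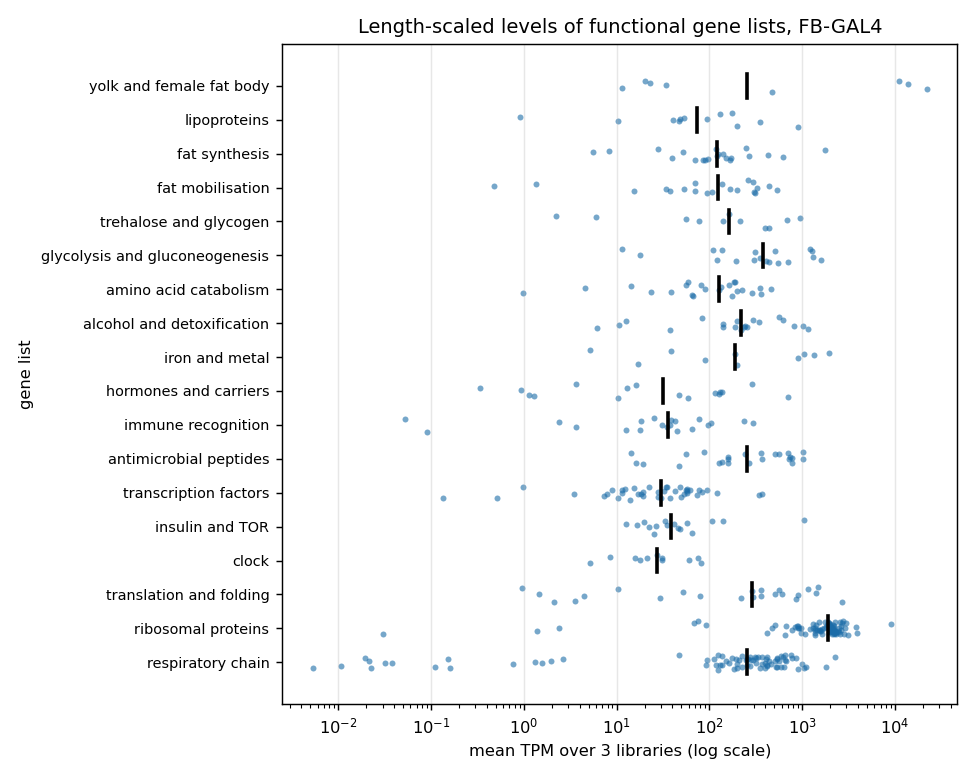
Mean TPM over the 3 FB-GAL4 libraries of each gene in 18 functional lists, on a log axis. Each point is a gene with a value above 0 and a known length, and the black bar is the median of the list, 1884 TPM for ribosomal proteins and 30.1 TPM for transcription factors.

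The hydrocarbon pathway held a gene near the yolk genes in level. Cyp4g1, the P450 that performs the last step of cuticular hydrocarbon synthesis, had 15957, 13803 and 7921 CPM and 9706 ± 3121 TPM on average, within the spread of Yp3 at 11006 ± 4686 TPM. Fad2, the female-specific desaturase of the sex pheromone pathway, had 2479.9, 1840.2 and 857 CPM. The elongase gene eloF, also a female pheromone enzyme, had 419, 355 and 145 CPM. Cpr, the reductase that feeds electrons to P450 enzymes, had 1649.9, 1554 and 847 CPM, and the integument fatty acid synthase FASN2 715, 772 and 465 CPM. Several of these genes mark oenocytes in the adult. Of the list, 9 of 12 genes reached 1 CPM in every library, against 9274 of the 15682 genes in the table. Their summed level was 24106, 21846 and 12522 CPM, lowest in replicate 3.

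Other P450 genes lay far below Cyp4g1 per length: over all 85 cytochrome P450 genes the median was 10.7 TPM, and the list of P450 genes was drawn up after the values were seen. Antioxidant and detoxification genes were led per length by the glutathione transferase gene GstD1 at 1163 TPM, with 650.3, 515 and 505 CPM. The catalase gene Cat had 1091, 928 and 741 CPM and the aldehyde dehydrogenase gene Aldh 759, 719 and 502 CPM. GstS1, a transferase abundant in flight muscle, stood out in this list at 117, 133 and 1071 CPM, with replicate 3 high as for the muscle genes. The ferritin light chain gene Fer2LCH had 1287, 1269 and 1197 CPM and its partner in the iron-storing complex, Fer1HCH, 1277, 1255 and 1108 CPM, with a heavy to light count ratio of 0.992, 0.989 and 0.925. The iron carrier of the haemolymph, Tsf1, had 752, 1015 and 3258 CPM and was over 2-fold higher in replicate 3. The metallothionein gene MtnA had 979, 819 and 537 CPM, and its copper- and cadmium-binding relatives MtnC and MtnD averaged 29.7 ± 11.3 and 29.2 ± 8.67 CPM (SD, n = 3).

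Genes of hormones and their carriers had a median of 31.3 TPM. In every library 13 of 17 reached 1 CPM, against 9274 of the 15682 genes in the table. Nplp2, a peptide precursor, took the most counts of the list, with 3364, 2479.5 and 1576 CPM. ImpL2, whose product binds insulin-like peptides, had 229, 200.1 and 186 CPM. The lipocalin gene NLaz had 217, 212 and 141 CPM. These 3 genes were lowest in replicate 3, as were Lst, a limostatin hormone that restrains insulin release (149, 134 and 113 CPM), and daw, an activin ligand (116, 99.1 and 44.0 CPM). The growth-blocking peptide gene Gbp2 had 195, 150.2 and 157 CPM, and CCHa2, a nutrient-dependent peptide that acts on insulin-producing cells, 99.7, 74.0 and 140.0 CPM. The insulin-like peptide of the fat body, Ilp6, had 11.4, 10.4 and 20.7 CPM and averaged 10.3 TPM. The cytokine genes upd2 and upd3 averaged 0.336 and 1.15 TPM, with 0.0871, 0.265 and 0.770 CPM for upd2 and 0.319, 0.796 and 3.19 CPM for upd3, whose mean of 1.43 CPM was 0.558 CPM without replicate 3.

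Of 19 insulin and TOR genes listed, of the pathway that the study manipulates in its other group, 16 were matched by symbol. InR, Tor and S6k were not, and are missing from the values given here. All 16 reached 1 CPM in every library, against 9274 of the 15682 genes in the table. Pi3K92E, which encodes the endogenous Dp110 catalytic subunit, had 82.8, 98.1 and 105 CPM and 34.9 TPM on average. Its adaptor Pi3K21B had 80.2, 107 and 90.9 CPM and 33.2 TPM, so the 2 subunit genes lay within 1 SD of each other per length. Downstream, the kinase gene Akt had 115, 132 and 132 CPM and foxo, the factor that insulin signalling keeps out of the nucleus, 133, 147 and 122 CPM. Thor, the translation repressor 4E-BP and a foxo target, was highest of the 16 genes both in counts, at 476, 512 and 356 CPM, and per length, at 1047 TPM. Per length the list ran from 12.5 to 1047 TPM with a median of 38.4 TPM, and 0 of the 16 were over 2-fold apart in replicate 3. With 4.09% of all genes that far apart, a count of 0 does not set these 16 apart from other genes.

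Transcription factors varied over libraries about as much as other genes. Of 41 genes, 39 reached 1 CPM in every library, the median coefficient of variation of those at a mean of 1 CPM or more was 11.1%, against 13.4% over all 9642 genes at that level, and their summed CPM was 4419.9, 4479 and 4234. The stress factors crc, which is the fly ATF4, and Xbp1, of the unfolded protein response, led per length at 339 and 372 TPM. The fat body GATA factor srp had 94.1, 91.3 and 91.9 CPM. Mondo, the sugar sensor, had 218, 231 and 197 CPM and its target sug 92.7, 115 and 46.9 CPM, with replicate 3 low for the target. Hnf4, a lipid-sensing nuclear receptor, had 127, 115 and 101 CPM, and the ecdysone receptor pair EcR and usp averaged 44.7 ± 3.28 and 84.7 ± 8.62 CPM (SD, n = 3). The immune factor genes differed among themselves: Rel, the Imd pathway factor, had 135, 121 and 243 CPM, while the Toll pathway factor dl had 96.6, 115 and 118 CPM and Dif, of the same pathway, 71.5, 60.7 and 82.6 CPM. At the foot of the list, slp2 had 0.552, 0.487 and 1.02 CPM and Hr83 0.0581, 0.133 and 0 CPM. All 11 clock genes reached 1 CPM in every library. The transcription factor gene Clk averaged 21.6 ± 1.53 CPM, and sgg and dco, kinases with many other targets, 219 ± 21.7 and 218 ± 30.8 CPM (SD, n = 3).

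The immune peptide genes set replicate 3 apart. Of 27 antimicrobial peptide genes listed, 24 were matched by symbol. Dpt, Drs and BaraA2 were not, and are missing from the sums and counts given here. The 24 matched genes summed to 660.3, 608.9 and 7130.2 CPM, or 0.0660%, 0.0609% and 0.713% of the counts. The attacin gene AttC had 55.8, 33.3 and 1017 CPM, the drosocin gene Dro 22.2, 16.3 and 869.9 CPM and the diptericin gene DptB 22.9, 24.8 and 726 CPM. These are induced through the Imd pathway. Of Toll-dependent peptides, BomS1 had 68.3, 60.0 and 490.1 CPM, BomS3 104, 79.8 and 479 CPM and Dso1 88.5, 85.8 and 558 CPM. Every one of the 24 genes was highest in replicate 3, and how many of all genes were highest there was not counted. At a mean of 10 CPM or more stood 21 of them, 6 of which reached it only through replicate 3, so that those had to be high there. Of the other 15, which had a mean of at least 10 CPM in replicates 1 and 2, 15 were over 2-fold and 5 over 10-fold above both other libraries, against 1.71% over 2-fold above among the 7430 genes at that level. Near-identical members such as CecA1 and CecA2, or the short Bomanins, could share reads. Among recognition genes, PGRP-SB1 had 53.7, 26.3 and 232 CPM and the complement-like gene Tep2 139, 112 and 621 CPM. The Imd receptor gene PGRP-LC moved less, with 74.6, 58.0 and 105 CPM, and 2 of 16 recognition genes were over 2-fold higher in replicate 3, against 2.72% of all genes. The stress peptide gene TotA had 67.5, 50.8 and 351 CPM and TotC 26.0, 23.4 and 145 CPM, whereas TotE and TotF had no count in any library. The serine protease inhibitor nec, which restrains Toll signalling, had 174, 151 and 247 CPM.

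Mitochondrial transcripts and ribosomal protein genes held the largest shares among the 15 gene groups set out in the plot of library make-up. The mitochondrial genome held 8.02%, 6.84% and 12.3% of the counts. Its large ribosomal RNA mt:lrRNA had 39021, 33860.0 and 63077 CPM, the cytochrome oxidase subunit transcripts mt:CoI 15323, 12503 and 19152 CPM and mt:CoIII 9721, 8274 and 14356 CPM. Of the 37 genes of this genome, 17 tRNA genes had no count in any library. Replicate 3 was the highest library for 13 of the 15 at a mean of 1 CPM or more. Of the 12 at a mean of 10 CPM or more, 1 was over 2-fold higher there, mt:ATPase6, with 3074, 2787 and 6384 CPM. The ratio of mt:CoIII to mt:lrRNA counts was 0.249, 0.244 and 0.228. The nuclear genes of the respiratory chain were uneven in the same direction, with summed CPM of 16426, 14835 and 25057. Replicate 3 was highest for 62 of the 65 genes at a mean of 1 CPM or more. Of the 65 at a mean of 10 CPM or more, 4 were over 2-fold above both others there, against 2.72% of all genes. These were ATPsynB, ATPsyngamma, ATPsynC and COX7AL2. ATPsynC, of the ATP synthase rotor, had 1358, 1346 and 2969.9 CPM. ATPsynbeta, the catalytic subunit of ATP synthase, had 2591, 2165 and 4344 CPM, and sesB, the ADP/ATP carrier, 2433, 2172 and 5967 CPM. Ribosomal protein genes, in contrast, held 8.40%, 8.33% and 6.80% of the counts. Replicate 3 was lowest for 78 of the 81 genes at a mean of 1 CPM or more. None was over 2-fold below both others. With 1.37% of all genes that far below, this does not set them apart from other genes. How many of all genes were highest or lowest in replicate 3 was not counted here. The elongation factor gene eEF2 had 4756, 4969.9 and 4206 CPM, and the chaperone gene Hsp83, the fly Hsp90, 2472, 2596 and 2307 CPM.

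**Figure D3:**
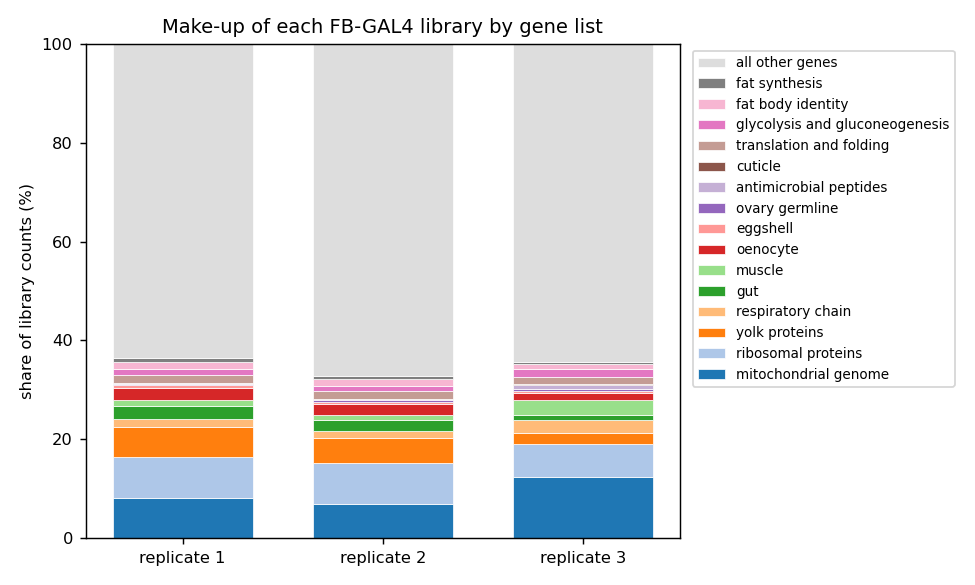
Share of library counts, in percent, held by 15 groups of genes and by all other genes in each FB-GAL4 library. Each gene is counted once, under the first group that holds it from the bottom of the bar; yolk proteins take 6.02%, 5.09% and 2.24% and the mitochondrial genome 8.02%, 6.84% and 12.3% in replicates 1, 2 and 3.

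Scaled by exonic length, short transcripts came to the front. Of the 100 genes of highest TPM, 55 encoded ribosomal proteins, 8 lay on the mitochondrial genome and 3 were the yolk genes. RpL41, whose product is a very short ribosomal peptide, reached 9157 TPM from 1661 ± 182 CPM (SD, n = 3), and RpL39 3929.5 TPM. These 100 genes had a median exonic length of 949.5 bases, against 2080.0 bases for all genes at 1 CPM or more in every library. A single exon block was found in 26.0% of the leading 100 and in 10.1% of all such genes. The leading long transcript by counts, apolpp, came to 897 TPM. When 200 bases were taken off each length and genes of 300 bases or less were left out, RpL41 came to 19840 TPM. With the full length it was 9157 TPM.

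The chromosome arms were used unevenly in counts but evenly by the middle gene. Of genes with an arm in the annotation, 64.3% of those on the X chromosome and 83.5% of the 91 on the small chromosome 4 reached 1 CPM in every library, and on the large autosome arms this was 55.6% to 61.9%. The X chromosome held 19.9%, 19.4% and 16.0% of the counts, including the yolk genes, Cyp4g1 and sesB. Its detected genes had a median of 26.9 TPM, against 28.1 TPM over the arms 2L, 2R, 3L and 3R. Chromosome 4 held 1.87 ± 0.207% of the counts, and apolpp and ATPsynbeta both lie there.

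The labelled tissue was checked against its markers. Of 22 fat body markers 20 were matched by symbol, and FASN1 and Mtp were not analysed here. Of these 20, 16 reached 1 CPM in every library, against 9274 of the 15682 genes in the table. The list held 7.82%, 6.54% and 3.37% of the counts (5.91 ± 2.29%, and 7.18% without replicate 3). Most of this was yolk: the 17 markers other than the yolk protein genes held 1.80%, 1.45% and 1.12%. Ovary genes were also present in these libraries, and what part of the yolk counts came from ovary was not tested. Against both other libraries, 7 of the 20 markers were over 2-fold above in replicate 3, namely the 6 larval storage genes and Tsf1. Another 4 were over 2-fold below, namely apolpp and the 3 yolk protein genes. Over all 7529 genes at a mean of 10 CPM or more these shares were 2.72% and 1.37%. A mean of 10 CPM was reached by 4 of the 7 only through replicate 3. The markers that did not reach 1 CPM in every library were Fbp1, Fbp2, Lsp1alpha and Lsp1gamma, genes best known from the larval fat body, which are taken up with replicate 3. Adult fat body markers such as apolpp, Lsd-1 and srp were present in each library.

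Markers of neighbouring tissues were present as well. The 36 gut genes held 2.67%, 2.09% and 0.954% of the counts. The digestive protease gene Jon65Aiv had 5064, 3469 and 1245 CPM, the trypsin gene betaTry 4632, 3488 and 1378 CPM and the amylase gene Amy-p 1074, 1233 and 843 CPM. Jonah and trypsin genes form families with close copies, whose members could share reads. The 26 muscle genes held 1.22%, 1.09% and 3.22%, a mean of 1.84%, and 1.15% without replicate 3. All 26 reached 1 CPM in every library. Ovary was represented by eggshell genes at 0.553 ± 0.0401% and germline genes at 0.339 ± 0.0453%. The chorion gene Cp38 had 911, 828 and 1152 CPM, the vitelline membrane gene Vm26Aa 797, 528 and 454 CPM, the yolk receptor gene yl 621, 914 and 889.6 CPM and the posterior determinant osk 575, 657 and 735 CPM. The ovarian sums lay close together over libraries, unlike those of gut and muscle. Single eggshell genes did not, with a median coefficient of variation of 31.6%, against 13.4% over all genes at a mean of 1 CPM or more. For the germline genes it was 12.7%.

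Blood cells, tubules and neurons left smaller traces. The haemocyte list summed to 1158 ± 302 CPM, led by the collagen genes Col4a1 and vkg, which fat body also expresses, while the blood cell genes Hml and NimC1 averaged 88.6 ± 16.7 and 28.9 ± 7.48 CPM (SD, n = 3). The Malpighian tubule list summed to 407.6 ± 74.1 CPM and the neuron and glia list to 316.7 ± 20.3 CPM. In every library 15 of 15 neuron and glia genes reached 1 CPM, against 9274 of the 15682 genes in the table. The tracheal list summed to 59.6, 45.3 and 406.1 CPM. Photoreceptor genes were nearly absent at 4.33, 5.40 and 2.03 CPM in sum, and ninaE, the main rhodopsin gene, had 1.92, 2.48 and 0.490 CPM. The spermathecal protease genes Send1 and Send2 summed to 4.27, 0.177 and 15.7 CPM. What share of any gene's counts came from these tissues was not tested.

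**Figure D4:**
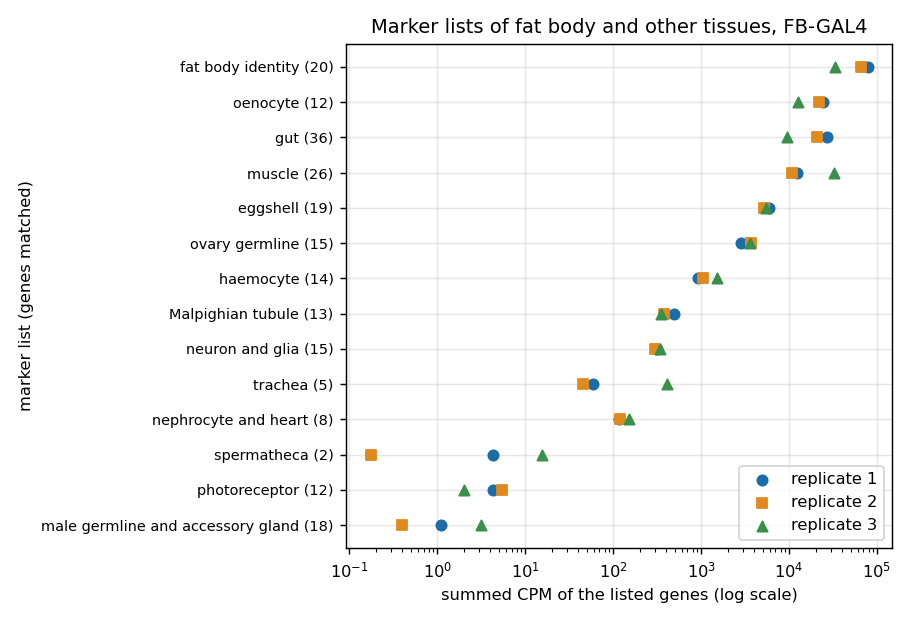
Summed CPM of the marker lists of fat body and 13 other tissues in each FB-GAL4 library, on a log axis, with the number of genes matched in brackets. Fat body markers lie between 33665 and 78169 CPM and photoreceptor markers between 2.03 and 5.40 CPM; muscle and trachea are highest and gut is lowest in replicate 3.

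Replicate 3 held genes that were almost missing from the other libraries. Of 7529 genes with a mean of 10 CPM or more, 205 were over 2-fold above and 103 over 2-fold below both other libraries in replicate 3. The same counts were 35 and 29 for replicate 1 and 47 and 22 for replicate 2. Over 10-fold above both others were 51 genes in replicate 3 and 0 in replicates 1 and 2. A gene that is low elsewhere reaches a mean of 10 CPM only through the library in which it is high, and 41 of the 51 had a mean under 10 CPM in replicates 1 and 2. With the minimum set on the mean of replicates 1 and 2, an alternative added after the values were seen, 127 of 7430 genes were over 2-fold above, 106 over 2-fold below and 10 over 10-fold above. Cuticle genes made up 14 of the 51 and antimicrobial peptides 10, where these lists held 19 and 21 of the 7529 genes. With the minimum on replicates 1 and 2 they made up 1 and 5 of the 10. The make-up of the 51 thus depended on the minimum. The cuticle list of 106 symbols was drawn up after the values were seen. At a mean of 10 CPM or more stood 19 of the 106, 13 of them only through replicate 3. Of the other 6 genes 2 were over 2-fold above both others there, against 1.71% of the 7430 genes. The adult cuticle protein gene Acp65Aa had 0.523, 0.752 and 351 CPM, Acp1 0.203, 0.487 and 361 CPM and Cpr92F 0.174, 0.177 and 319.7 CPM. Cpr49Ae, with the most counts of the list in replicate 3, had 59.9, 17.9 and 869 CPM. The chitin synthase gene kkv had 0.523, 0.398 and 49.8 CPM and the chitin deacetylase gene verm, a tracheal and epidermal marker, 12.1, 9.16 and 164 CPM. Other cuticle genes did not share this, as Cpr49Ab had 253, 163 and 255 CPM and Cpr65Au 61.9, 50.6 and 43.5 CPM.

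The larval storage genes, a list also drawn up after the values were seen, were high in the same library. Of the 6 genes, 4 encode serum proteins that the larva stores for metamorphosis, Fbp1 encodes the receptor that takes them up again, and Fbp2 a fat body protein related to alcohol dehydrogenase. A mean of 10 CPM was reached by 4 of the 6 only through replicate 3, and no count over the list is therefore given. Fbp1 had 0.610, 0.221 and 163 CPM, Fbp2 0, 0.0442 and 169 CPM and Lsp1alpha 0.203, 0.133 and 56.2 CPM. In replicates 1 and 2 these values came from between 0 and 21 counts per gene. Lsp1beta, at 31.4, 18.4 and 182 CPM, and Lsp2, at 115, 104 and 268 CPM, were detected in every library and were also highest in replicate 3. The peptide precursor gene Nplp3 had 6.39, 3.89 and 795 CPM, and SPH93, a serine protease homologue, 0.145, 0.0442 and 381 CPM. In replicates 1 and 2 the counts of SPH93 were 5 and 1.

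Muscle genes differed unevenly within the list. The flight muscle actin gene Act88F had 45.9, 219.8 and 2802 CPM and the flightin gene fln, also of flight muscle, 48.8, 49.3 and 1040.1 CPM. The myosin heavy chain gene Mhc had 1235, 1179 and 5588 CPM and the light chain gene Mlc2 803, 646 and 4611 CPM. The body wall actin gene Act57B had 919, 954 and 1026 CPM, and the ratio of Act57B to Mhc counts was 0.744, 0.810 and 0.184. In all, 14 of 26 muscle genes were over 2-fold above both others in replicate 3 and 12 were not, and each of the 26 had a mean of at least 10 CPM in replicates 1 and 2. In the other direction, 12 of 28 gut genes, 3 of 3 yolk genes and 4 of 5 lysozyme genes were over 2-fold lower there. Over all 7529 genes at a mean of 10 CPM or more, 2.72% were as far above and 1.37% as far below. The digestive lysozyme gene LysD had 1183, 867 and 305 CPM.

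**Figure D5:**
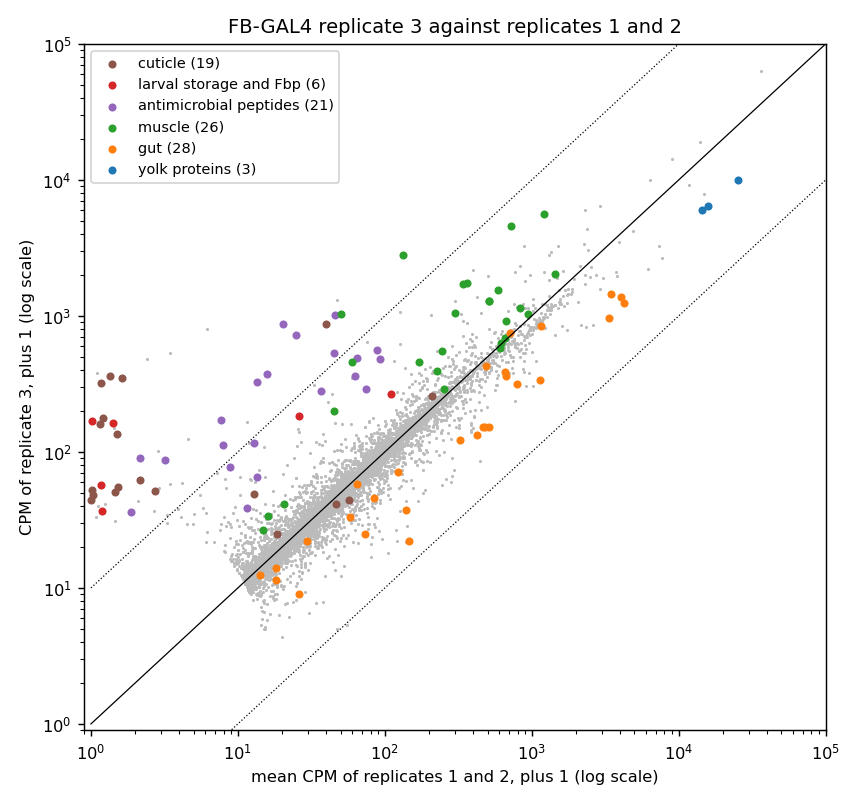
CPM of replicate 3 against the mean CPM of replicates 1 and 2, each plus 1 on log axes, for the 7529 genes with a mean of 10 CPM or more. The solid line is equality and the dotted lines 10-fold. Over 2-fold above both other libraries lie 14 of 26 muscle genes, against 2.72% of all 7529. Over 2-fold below lie 3 of 3 yolk and 12 of 28 gut genes, against 1.37%. Genes under 10 CPM in replicates 1 and 2 are in the plot only because they are high in replicate 3, among them 13 cuticle, 4 larval storage and 6 antimicrobial peptide genes.

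Replicates 1 and 2 had smaller marks of their own, described here for genes chosen after their values were seen. Replicate 1 was high for several detoxification enzymes. Cyp6a2 had 440.4, 129 and 65.0 CPM, Cyp6a8 215, 19.2 and 25.5 CPM and the epoxide hydrolase gene Jheh1 440.2, 82.0 and 62.0 CPM. The heat shock gene Hsp70Bb had 32.9, 5.31 and 3.36 CPM. In the same library w, the eye pigment transporter gene that is mutated in this background, had 487, 172 and 175 CPM. Replicate 2 was high for the trypsin gene lambdaTry at 11.1, 39.1 and 7.98 CPM, for the acyl-CoA-binding gene Acbp5 at 32.1, 120.0 and 28.5 CPM, and for nuclear ribosomal RNA genes such as 18SrRNA:CR41548 at 207, 429.9 and 158 CPM. It was at or near 0 for a small set that was well above that limit of 3 counts in the other libraries: CG31681 had 17.5, 0.0442 and 14.7 CPM, CG43090 17.2, 0.0442 and 15.2 CPM and CG43074 21.3, 0.177 and 16.1 CPM. The counts of CG31681 and CG43090 in replicate 2 were 1 each.

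Most genes varied less over libraries than those above. The median coefficient of variation over libraries was 12.2% for the 7529 genes at a mean of 10 CPM or more, and 346 of these, 4.60%, exceeded 50%. Among the 10 steadiest were Pp1alpha-96A, a protein phosphatase catalytic subunit, at 175, 174 and 175 CPM, and Pka-R1, the regulatory subunit of protein kinase A, at 134, 134 and 135 CPM. With 3 libraries, some coefficients near 0 arise by sampling, and these genes are given as a description. Common reference genes differed: Act5C had 2057, 2204 and 2330.0 CPM, alphaTub84B 834, 1036 and 1139 CPM and RpL32 787, 760.1 and 596 CPM, the actin and tubulin genes lowest in replicate 1 and RpL32 lowest in replicate 3.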

How the data were processed

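RNA from dissected fat bodies was sequenced as paired-end reads from mRNA libraries made from 1 ug of RNA with 10 PCR cycles. Per the study's methods and the submitters' processing notes, the authors aligned reads with TopHat2 2.0.11 to BDGP5 and counted genes with HTSeq. The deposited count columns are the authors' unnormalized read counts per gene. The strand setting and the handling of reads with several positions are not given in the sources used here, so overlapping, antisense and near-identical genes are uncertain. The same table holds the authors' DESeq2 comparison (mean signal, log2 fold change, its standard error, the Wald score, p-value and adjusted p-value), which was not used.

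The 3 FB-GAL4 count columns were mapped by sample title. Control replicates 2 and 3 have an identical description field, and were told apart by title. Per the study's methods the replicates are biological repeats. CPM were counts over the library total. TPM were counts over the summed exonic length of the BDGP6 annotation, scaled to a sum of 1000000, for genes with a length. Coordinates are not given because the builds differ, and promoter and protein sequences were not analysed here. Of 15682 identifiers 15002 matched a symbol, 20 were named from the study's supplementary table and 660 were left as they are. Spread was fitted with edgeR 4.0.16 in R 4.3.3 after filterByExpr and TMM scaling, and DESeq2 1.42.0 gave alternative size factors. Tables were made with pandas 2.3.3 in Python 3.11.15. A gene was said to stand apart in a library when it lay over 2-fold above or below each of the others at a mean of 10 CPM or more, or, as an alternative added after the values were seen, at a mean of 10 CPM or more in replicates 1 and 2. Counts were simulated for 7365 genes at the pooled means of replicates 1 and 2 and the FB-GAL4 depths. On these the step named 88 of 100 genes raised 3-fold, 100 of 100 raised 8-fold and 0 of 7165 unchanged genes. The simulated noise was lower than the coefficient of variation fitted to the real libraries, 0.273 over all and 0.184 without replicate 3. The count of 0 therefore does not show how often unchanged genes are named at the real spread.

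Depth was 22607341 to 34435224 counts. The exact (Clopper-Pearson) 95% interval of the share of the 10 leading genes was 16.64% to 16.66% in replicate 1. Such intervals and the floor of 3 counts cover counting error only, since PCR copies without molecular identifiers are not independent molecules. No test between conditions was made. Genes were named by a rule: the 30 of highest mean CPM, the 20 of highest mean TPM, the 4 leading members of each list and its members at 0, the 20 of widest range and the 10 of lowest coefficient of variation over libraries at 10 CPM or more, and any member of the transcription factor, hormone and insulin lists. Other genes named in the text were chosen after their values were seen. The gene lists, the members and these rules were chosen with earlier results of these data known. The lists of cuticle genes, larval storage genes, yolk proteins, lysozymes and P450 genes were added after the values were seen. Alternatives were other scalings, CPM minimums, totals without the mitochondrial genome or without low genes, other exonic lengths, and each replicate left out.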

Additional observations from a re-analysis of the deposited data

How the results depend on the processing

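The count of detected genes was 9685 at a minimum of 0.5 CPM, 8051 at 5 CPM and 9273 with TMM or DESeq2 scaling, and it ranged from 9338 to 9389 with a replicate left out. With the mitochondrial genome left out of the total, the 10 leading genes held 10.2%, the eggshell share was 0.609% and the neuron and glia share 0.0349%. The leading genes were picked anew there without the mitochondrial transcripts, so the 10.2% is not a share of the same genes. With genes under 10 counts in any library left out, the male list had no gene left and a share of 0. Of 60 recomputed shares with all replicates kept, these 4 moved by more than 1 SD between libraries. With the CPM minimum on the mean of replicates 1 and 2, chosen after seeing the data, 127 genes in place of 205 were over 2-fold and 10 in place of 51 over 10-fold above both others in replicate 3. With a replicate left out, the share of the 10 leading genes ranged from 14.7% to 15.8%, the fat body share from 4.95% to 7.18%, the muscle share from 1.15% to 2.22%, the gut share from 1.52% to 2.38% and the tracheal share from 0.00524% (without replicate 3) to 0.0233%, against 0.0170% in all. The coefficient of variation between libraries was 0.343 with no filter beyond 1 count and ranged from 0.184 without replicate 3 to 0.297 without replicate 2. Of the 20 genes of highest TPM, 14 were shared with the mitochondrial genome left out, and the others were mitochondrial genes that this setting removed. That count was thus fixed by construction. With shorter lengths 18 were shared. Genes of 300 bases or less were dropped there, which removed LysC and RpL39. The 18 were thus the most that could be shared. Leaving out 1 of 3 libraries cannot move a mean over fixed genes by 1 SD, by construction, so that limit says nothing there; by size, the mean CPM of 36 of 165 named genes moved over 1.5-fold without replicate 3, of 7 without replicate 1 and of 4 without replicate 2. With TMM scaling 0 of the 165 moved by 1 SD. With 3 libraries, SDs are themselves imprecise, and genes under about 1 CPM rest on few counts. No paired analysis was possible because no groups were compared and no test was made.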

Other observations

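Odorant-binding protein genes, which encode small carriers of hydrophobic molecules and are known best from the antenna, were also read in the fat body and were chosen here after their values were seen. Obp99c had 471, 344 and 459 CPM and 1118 TPM on average. Obp99a had 314, 259.7 and 89.6 CPM, with replicate 3 low as for the yolk genes. Obp99b had 3.75, 3.36 and 123 CPM, so that it was high where Obp99a was low. Obp57c had 106, 95.3 and 59.8 CPM. Among unlisted genes, dhd, a thioredoxin of the female germline, had 1029.6, 1576 and 1105 CPM and Scp1, a calcium-binding protein gene, 467, 324 and 2166 CPM.

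Apart from ribosomal RNA, RNA that codes for no protein held a small part of the counts. Genes annotated as non-coding RNA took 0.407 ± 0.0162% and pseudogenes 0.134 ± 0.0534% of the counts (SD, n = 3), and lncRNA:CR42862 led the non-coding genes with 1608, 1676 and 2139 CPM. The nuclear stress RNA lncRNA:Hsromega had 168, 118 and 157 CPM. Antisense genes are left out because no source used here tells whether counting used strand. The 660 identifiers without a symbol held 6.28 ± 0.388% of the counts.

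The FB-Dp110DN library numbered 3 was inspected for the genes that stood apart in FB-GAL4 replicate 3, without a comparison between the groups. At a mean of 10 CPM over the 3 FB-GAL4 libraries, 51 genes were over 10-fold above both others in FB-GAL4 replicate 3. Of these, 41 had a mean under 10 CPM in FB-GAL4 replicates 1 and 2. In FB-Dp110DN replicate 3, 34 of the 51 were also over 10-fold above both others, and 15 were not above both others. How many of all genes were that far above there was not counted, so the 34 have no share to be set against. Within the FB-Dp110DN libraries, the cuticle genes summed to 541.9, 470.1 and 4802 CPM for replicates 1, 2 and 3. Of the larval storage genes, Lsp2 had 64.6, 137.7 and 1346 CPM, Fbp1 0.564, 0.271 and 10.6 CPM and Lsp1beta 11.02, 21.4 and 11.3 CPM, so Lsp1beta was not high in replicate 3 there. The antimicrobial peptide genes summed to 735, 2373 and 783.8 CPM, so they did not set replicate 3 apart in that group. The gut genes summed to 31678, 31811 and 7353 CPM and the muscle genes to 13679, 14806 and 46626 CPM. Per the series text samples were prepared on different dates, and per the study's methods mutant and wild-type samples were paired by the day of processing and the authors corrected for that day. Library and date therefore cannot be told apart within FB-GAL4, and the part of the date in these values was not tested.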
